A study of Mus musculus with 16 samples.

Results

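The 10 genes described here write, read and erase DNA methylation or form the core of Polycomb repressive complex PRC2: Dnmt1, Dnmt3a, Dnmt3b, Uhrf1, Hells, Ezh2, Suz12, Eed, Tet2 and Tet3. They were found by gene symbol among 22328 genes on the array, and all 10 were present. Where a gene had several probes, the brightest stood for it. Of the 10, 9 were bright enough at that probe to be compared in every measure, and Tet3 was not.

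The cells were mouse lymph node T cells of genotype OT-1het, Rag-/-, either WT or Lck-/-. The series title writes the latter as Lck-/- (OFF), and the labels do not explain OFF. All of them carried the OT-1 T cell receptor, a transgene that recognises the ovalbumin peptide SIINFEKL, and none had a working Rag gene to rearrange other receptors. Lck, a Src-family kinase, phosphorylates this receptor's CD3 chains when peptide is bound. Both genotypes were cultured with 100 nM SIINFEKL for 24 h, and 100 µg/ml cycloheximide was added for the last 10 min, so no unstimulated cells were compared. Lysates were spun on sucrose gradients of 10 to 50%. Fractions 1 to 5 gave the sub-polysomal pool, from mRNAs with few or no ribosomes, and fractions 6 to 10 the polysomal pool, from mRNAs with several. Each of 8 extracts, 4 per genotype, was measured on 2 two-colour arrays with the dyes swapped. Since the labels name no animal or culture for an extract, each p-value here covers the spread among the 8 extracts, which may be technical. The ages of the mice are not given in the sources used here.

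DNA methylation is copied after replication by Dnmt1, which Uhrf1 brings to half-methylated DNA and which works with the chromatin remodeller Hells. Dnmt3a and Dnmt3b place methyl groups on unmethylated DNA, while Tet2 and Tet3 oxidise methylcytosine and so start its removal. Ezh2 is the methyltransferase of PRC2, which marks histone H3 at lysine residue K27, and needs its partners Suz12 and Eed to work. In CD8 T cells these enzymes are known for silencing memory and naive genes as effector cells form, and several of them are made in step with the cell cycle.

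Several of these genes are textbook targets of E2F factors, which switch on S-phase genes. The RefSeq promoter table (build GRCm38.p6, 250 bases before to 50 after the start) held 15 promoters for the 10 genes. They were searched on both strands for 4 E2F-type motifs, TTTCCCGC, TTTGGCGC, TTTCGCGC and TTTGCCGC, of which no 2 overlapped in a match. Promoters of 5 genes held a match, none of the motifs in more than 2 genes, and those of Dnmt3a, Dnmt3b, Eed, Tet2 and Tet3 held none. The stretches of 30 bases around the matches are shown so that the matches can be compared, with the match in capitals, read 5′ to 3′ along the gene's strand.
Dnmt1, chr9:20952824-20952853, minus strand: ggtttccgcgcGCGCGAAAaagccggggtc
Dnmt1, chr9:20952574-20952603, minus strand: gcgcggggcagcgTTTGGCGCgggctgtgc
Uhrf1, chr17:56304117-56304146, plus strand: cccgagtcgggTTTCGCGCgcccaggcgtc
Hells, chr19:38930917-38930946, plus strand: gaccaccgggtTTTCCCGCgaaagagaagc
Ezh2, chr6:47595009-47595038, minus strand: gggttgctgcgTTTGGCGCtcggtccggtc
Suz12, chr11:79992876-79992905, plus strand: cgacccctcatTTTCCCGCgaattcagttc
Of all 32851 promoters in the table, 2.26% held any of the 4 motifs, and of the 3837 with at least 30 CpG sites 5.06% did. Matching promoters of the 5 genes had 31 to 41 CpG sites, against a median of 7 over all promoters, and promoters without a match reached as many or more (57 in Tet2, 46 and 47 at Dnmt3a). A match is a description of these letters and not a bound site. Neither promoter letters nor binding were measured on the arrays.

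Lck itself was lower in each of the 4 Lck-/- extracts. The mean log2 level of both fractions was 15.03 ± 0.21 (SD, n = 4) in WT and 14.18 ± 0.13 in Lck-/- (difference -0.85, limma adjusted p = 0.00314). Its probe stayed well above background in Lck-/- extracts. How Lck was removed, and whether the probe lies in a deleted part, is not given in the sources used here. Markers of CD8 T cells were measured for 6 of 6 genes in both genotypes, with a summed intensity of 71808 to 89369 in WT and 96311 to 104460 in Lck-/- extracts. Of these 6, Thy1 passed the test between genotypes (0.44, adjusted p = 0.0355), Cd8a, Cd8b1 and Cd2 gave 0.28 to 0.42, Cd3g 0.03 and Cd3e -0.32. Among markers of other cells, Cd4, the B cell gene Cd79b, the NK cell gene Nkg7 and the myeloid genes Csf1r and Itgam were well above background on 8 of 8 arrays in each genotype, and Cd74 on 7 in WT and 8 in Lck-/-. None of these 6 passed between genotypes, with Itgam the farthest from 0 (-0.71, adjusted p = 0.0724). The B cell genes Cd79a, Ms4a1 and Pax5 and the stromal genes Col1a1 and Col3a1 were well above background on no array. The same held for the NK cell genes Klrb1c and Klrk1, the myeloid genes Adgre1 and Cd14 and the dendritic cell genes Itgax and Flt3. Ncr1 (NK cell) and Lyz2 (myeloid) were so on 0 arrays in WT and 1 in Lck-/-, and H2-Aa (dendritic cell) on 1 and 3. Between 12531 and 50776 probes per channel stood well above background. The highest number came from the Cy5 polysomal channel of Lck-/- replicate 1, while no other polysomal channel passed 26643. The Cy3 sub-polysomal channel of that array was high as well, at 27594, where the other Cy3 sub-polysomal channels had 12531 to 15941. Its dye swap had 16218 in the polysomal and 24403 in the sub-polysomal channel. The first arrays of WT replicates 1 and 2 ran against their own swaps: the ratio deviations correlated at -0.86 and -0.83 with these, and at 0.88 and 0.95 with the swap of the other extract, which lay on the same slide. In the other 6 extracts own swaps correlated at 0.43 to 0.87. Exchanging those swaps leaves the WT means as they are and changes only the spread.

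The first question was whether the mRNAs of these genes sat on polysomes, and whether loss of Lck moved them. The measure was the log2 ratio of polysomal to sub-polysomal RNA, normalised with loess, so that 0 is the typical mRNA of the array. In both genotypes 6 of the 9 measured genes lay above 0 by limma's adjusted p below 0.05, and 1, Eed, lay below it. With the swaps of WT replicates 1 and 2 exchanged, 5 lay above 0 in WT and 4 in Lck-/-, and none below. Over all 8263 genes tested with the pairs as labelled, 33.5% lay above and 28.7% below 0 in WT, and 26.9% above and 29.2% below in Lck-/-. The shares of all genes with exchanged swaps are not given here. None of the 9 differed between genotypes. At the gene-wide rate 3.86% of genes were called in that comparison, and at an unadjusted p below 0.05 the count among the 9 was also 0. Each slide held 1 array of every extract, and the direction of these differences was not the same on both: all 9 lay below 0 on slide 1 alone and 8 above 0 on slide 2 alone, with none called on either.

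Dnmt3a (probe A_55_P2178084, chr12:3914320-3914379 of mm9, plus strand) had the highest polysomal to sub-polysomal ratio of the group. Its ratios were 1.53, 1.58, 1.47 and 1.33 in WT replicates 1 to 4, and 0.88, 1.60, 1.33 and 1.94 in Lck-/-. As labelled, every WT value lay above every WT value of the other 8 genes. With the swaps of WT replicates 1 and 2 exchanged this does not hold. WT replicate 2 and the swap of replicate 1 gave 0.99 and 1.25 for Dnmt3a. WT replicate 1 and the swap of replicate 2 gave 1.66 and 1.53 for Dnmt3b. In either genotype 99.5% of all genes tested had a lower mean ratio. The Lck-/- values spread around the WT values, as labelled, on both sides (mean 1.48 ± 0.11 in WT and 1.43 ± 0.45 in Lck-/-, SD, n = 4). Lck-/- replicate 1, whose first array stood apart in both channels, gave the lowest of the 4 (0.47 on that array and 1.28 on its swap).

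Suz12, Hells, Dnmt1, Dnmt3b and Uhrf1 formed a middle group. In WT their mean ratios were 0.72 ± 0.09, 0.65 ± 0.13, 0.64 ± 0.25, 0.54 ± 0.05 and 0.49 ± 0.13 (SD, n = 4), and the ranges of neighbours in this order overlapped. In Lck-/- the means were 0.77 ± 0.28, 0.53 ± 0.21, 0.57 ± 0.03, 0.34 ± 0.17 and 0.48 ± 0.14. A dimmer Uhrf1 probe, A_66_P120074, gave higher ratios, 0.91 ± 0.20 in WT and 1.19 ± 0.26 in Lck-/-. It cleared the background in both channels on 4 of 8 WT arrays, too few for the ratio test. At the brightest probes, Dnmt3b had the largest difference of this group between genotypes. Its ratios were 0.56, 0.53, 0.60 and 0.47 in WT replicates 1 to 4 and 0.31, 0.59, 0.23 and 0.26 in Lck-/-. The arrays averaged for WT replicate 1 lay far apart, at 1.66 and -0.54, as did those for WT replicate 2, at -0.47 and 1.53. The small WT spread therefore rests on the labelled pairs. As labelled, 3 Lck-/- extracts lay below all WT extracts and Lck-/- replicate 2 lay among them (difference -0.20, SE 0.12, limma adjusted p = 0.382). By slide its difference turned, from -0.73 on slide 1 to 0.33 on slide 2.

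Ezh2, the PRC2 enzyme, and Eed, which binds the histone mark for PRC2, did not share the high ratio of their partner Suz12. Ezh2 gave -0.02, 0.21, 0.06 and 0.01 in WT and -0.17, 0.14, 0.06 and 0.07 in Lck-/-. It was not called against 0 in either genotype (limma adjusted p of 0.520 and 0.805). The values of WT replicates 1 and 2 average opposed arrays, at 0.80 and -0.84 and at -0.61 and 1.02. Their closeness to 0 therefore rests on the labelled pairs. Eed gave -0.53, -0.36, -0.02 and -0.25 in WT and -0.24, -0.14, -0.60 and -0.64 in Lck-/-, below 0 in all 8 extracts as labelled. With exchanged swaps WT replicate 1 would average arrays at -0.19 and 0.33, and so lie above 0. The mean of Eed was -0.29 ± 0.21 in WT (SD, n = 4; limma adjusted p against 0 of 0.0421) and -0.40 ± 0.25 in Lck-/- (0.0108). The Eed call was lost in both genotypes with the exchanged swaps. In WT it was also lost without any 1 of WT replicates 1, 2 and 4 or Lck-/- replicate 3, and in Lck-/- without Lck-/- replicate 3 or 4, whose values were the lowest. Tet2 gave -0.49, 0.55, 0.11 and 0.33 in Lck-/- against 0.11, 0.29, 0.41 and 0.05 in WT, and was called in neither genotype. Its Lck-/- spread (SD 0.45) was as wide as that of Dnmt3a, and in both genes replicate 1 was the lowest.

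**Figure D1:**
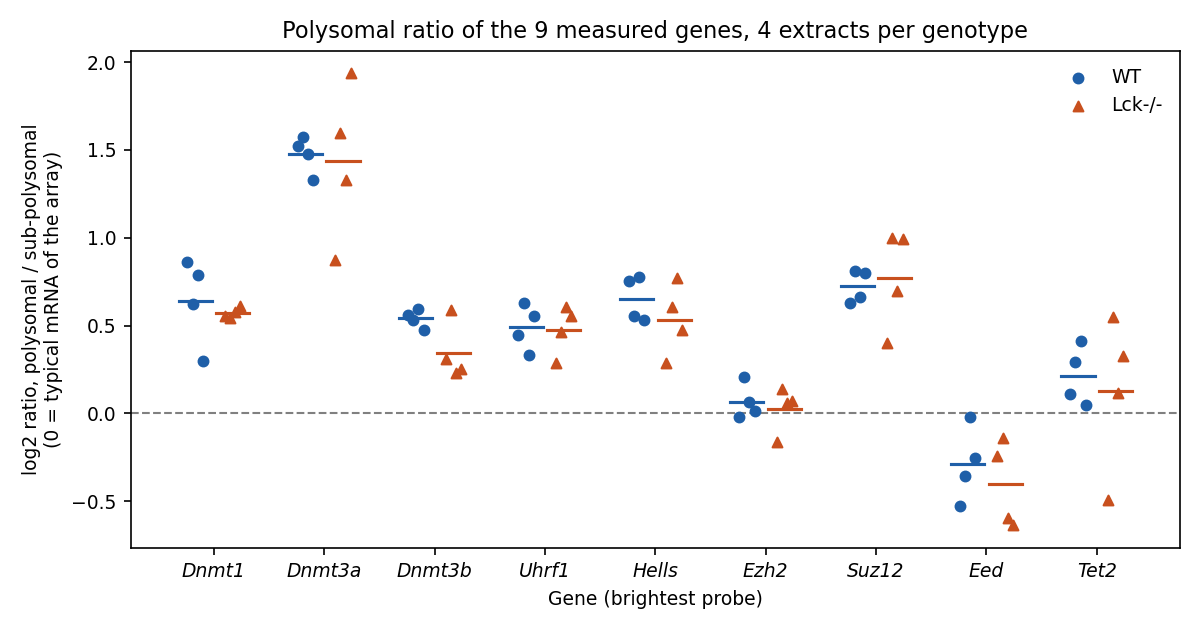
Log2 ratio of polysomal to sub-polysomal RNA for the 9 measured genes (x axis), one point per extract, with circles for WT, triangles for Lck-/- and a line at the mean of 4. With the swaps paired as labelled, Dnmt3a lies highest, Eed lies below the dashed line at 0 in all 8 extracts, and the genotypes overlap for every gene.

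These ratios are relative to the other mRNAs of the same array. On ratios without any normalization the median of all genes tested was lower in Lck-/- by 0.78 on the log2 scale, and all 9 genes fell (-0.68 for Dnmt3a to -1.16 for Eed), along with 5940 of 8263 genes, while 40 rose. In the authors' deposited table the median difference over all genes was -1.15, the 9 genes differed by -1.03 (Dnmt3a) to -1.53 (Eed), and 7426 of 8252 genes were lower and 25 higher. With each column of the authors' deposited table centred on its median, none of the 9 genes was called. Every labelling reaction took 1.5 µl whatever the RNA content of the pool, so a change in total polysomal RNA and a change in labelling cannot be told apart here.

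The second question was whether the levels of these mRNAs differed. The measure was the mean of the log2 levels of both fractions. It weighs both pools alike, whatever RNA each held, so it is not the total amount of an mRNA. Fewer cells of a type and less RNA per cell cannot be told apart in such bulk samples. Of the 9 genes measured, 1 rose in Lck-/- extracts, Dnmt3b, and none fell, where 10.2% of the 9073 genes tested rose and 11.2% fell. Dnmt3b also was the 1 gene of the 9 that rose in the sub-polysomal level, where 9.49% of 9703 genes rose. In the polysomal level none was called, where 15.2% of 10292 genes were, and Dnmt3b was the 1 gene at an unadjusted p below 0.05.

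Dnmt3b (probe A_55_P2130535, chr2:153513403-153513462 of mm9, plus strand) had mean log2 levels of 11.00, 11.06, 10.70 and 11.14 in WT replicates 1 to 4 and 11.22, 11.48, 11.61 and 11.55 in Lck-/-. The groups did not overlap, as was the case, in this direction, for 13.6% of genes tested. The rise was 0.49 on the log2 scale, or 1.41-fold (SE 0.14, 95% interval 0.18 to 0.80, limma adjusted p = 0.0315). Without WT replicates 1 and 2 the difference was 0.55 with an adjusted p of 0.103, and with their swaps exchanged it was 0.49 with 0.0388. Leaving out any 1 extract gave 0.40 to 0.57 with adjusted p of 0.0149 to 0.0890, and the call was lost without WT replicate 1, 2 or 3 or Lck-/- replicate 2, 3 or 4.

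Taken by pool, Dnmt3b passed in sub-polysomal RNA. Its levels there were 10.72, 10.79, 10.40 and 10.90 in WT and 11.06, 11.19, 11.50 and 11.42 in Lck-/-, again with no overlap as labelled (13.9% of genes tested). The difference was 0.59 (SE 0.15, limma adjusted p = 0.0226), and 0.64 with adjusted p = 0.0751 without WT replicates 1 and 2. With their swaps exchanged, the adjusted p was 0.0941, and the call was also lost without WT replicate 3 or Lck-/- replicate 3 or 4 (up to 0.0783). Polysomal levels were 11.28, 11.32, 10.99 and 11.38 in WT and 11.37, 11.78, 11.72 and 11.68 in Lck-/-, where Lck-/- replicate 1 fell just inside the WT range (difference 0.39, SE 0.16, adjusted p = 0.110). The difference between the 2 pools is the ratio test above, which did not pass. On slide 1 alone the sub-polysomal difference was 0.84 (adjusted p = 0.00804) and the polysomal one 0.11, while on slide 2 alone they were 0.34 and 0.67, where the polysomal one passed (0.0332). The mean of both differed less between slides, at 0.48 (0.0473) and 0.51 (0.0552). The summed intensity of the CD8 T cell markers, to which Thy1 gave the most, was also higher in every Lck-/- extract, and its part in this result was not tested.

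**Figure D2:**
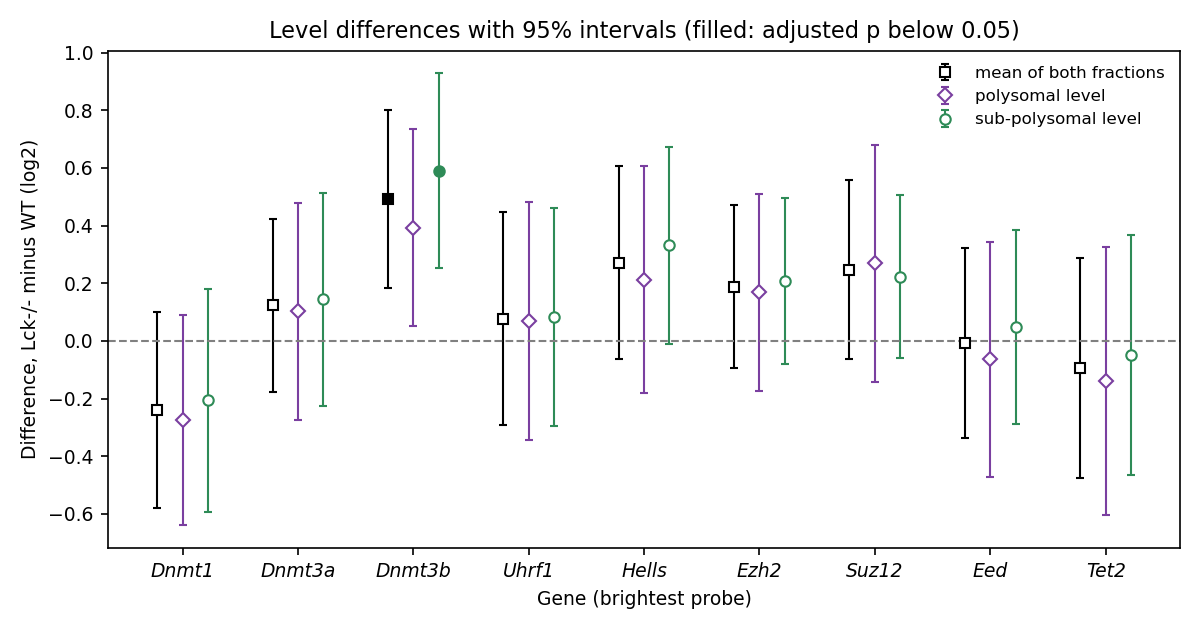
Difference in log2 level between Lck-/- and WT (y axis) for the 9 measured genes, with 95% intervals, for the mean of both fractions, the polysomal and the sub-polysomal level. Filled symbols passed limma's adjusted p below 0.05, and both belong to Dnmt3b, at 0.49 and 0.59.

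In the mean of both fractions the rise of Dnmt3b was called at 1 of its 3 probes. All 3 lie on the plus strand of chromosome 2 and are annotated to the same transcript; exon and UTR positions are not used here. Probe A_55_P1975903 (chr2:153512098-153512157) gave mean levels of 9.24, 9.08, 8.66 and 9.04 in WT and 9.10, 9.28, 8.89 and 8.75 in Lck-/-, a difference of -0.00 (SE 0.16). Probe A_55_P2008874 (chr2:153512991-153513050) gave 7.94, 8.09, 8.31 and 8.56 in WT and 8.29, 8.42, 8.34 and 8.39 in Lck-/-, a difference of 0.14 (SE 0.15). Neither of the dimmer probes was called in a fit over all 14657 probes (limma adjusted p = 0.997 and 0.556), where 18.2% of probes were called and the brightest probe had an adjusted p of 0.0391. With the mean over the 3 probes in place of the brightest, the difference was 0.21 (adjusted p = 0.200).

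In sub-polysomal RNA A_55_P2008874 gave a difference of 0.34 (SE 0.18, adjusted p = 0.199) and A_55_P1975903 one of 0.07 (SE 0.19), against 0.59 at the brightest probe. The mean over the 3 probes there gave 0.33 (adjusted p = 0.0600). In the ratio A_55_P2008874 gave a difference of -0.42 between genotypes, with a limma adjusted p of 0.115.

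**Figure D3:**
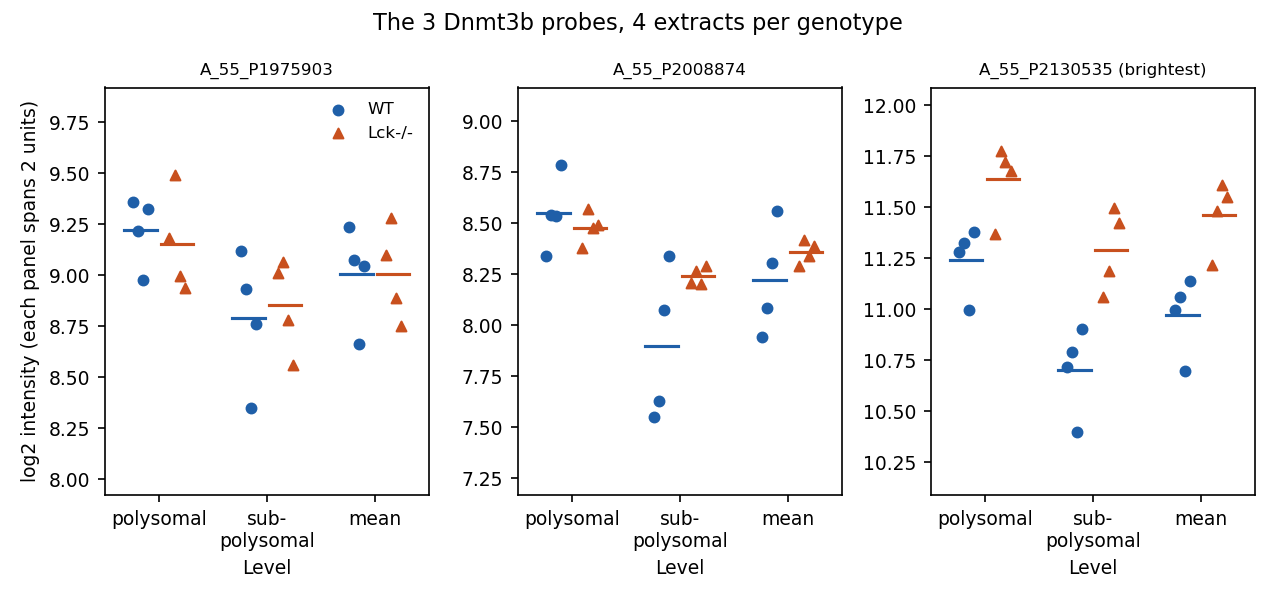
Log2 intensity of the 3 Dnmt3b probes (panels) in the polysomal and sub-polysomal pools and as their mean, one point per extract, circles for WT, triangles for Lck-/- and lines at means. Each y axis spans 2 log2 units; the mean rises by 0.49 at the right-hand probe and differs by -0.00 and 0.14 at the others.

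The genes of maintenance methylation did not move together in the mean of both fractions. Dnmt1 (probe A_51_P195573, chr9:20711973-20712341 of mm9, minus strand) was the lowest of the 9 differences, with mean levels of 10.70, 10.59, 10.36 and 10.76 in WT and 10.73, 10.29, 10.12 and 10.31 in Lck-/-. In Lck-/- 3 of the 4 extracts lay below all WT extracts, while replicate 1 lay near the top of the WT range (difference -0.24, SE 0.15, 95% interval -0.58 to 0.10, limma adjusted p = 0.283). Its recruiter Uhrf1 (chr17:56462770-56462829, plus strand) gave 13.97, 13.96, 13.32 and 13.86 in WT and 13.99, 13.99, 13.59 and 13.84 in Lck-/-. Those Uhrf1 groups overlapped almost fully (difference 0.08, 95% interval -0.29 to 0.45). Its dimmer probe A_66_P120074 gave 0.20 (SE 0.16, limma adjusted p = 0.425 over all probes). Hells (chr19:39039914-39039973, plus strand) gave 9.84, 9.22, 9.41 and 9.78 in WT and 9.73, 9.92, 9.84 and 9.84 in Lck-/-. As labelled, WT replicates 2 and 3 were low and the others lay at the Lck-/- level (difference 0.27, SE 0.15, limma adjusted p = 0.220). The arrays of WT replicate 2 lay apart, at 9.88 and, on its swap, 8.56. With the swaps of WT replicates 1 and 2 exchanged, the low array would count toward WT replicate 1.

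Dnmt3a, the other de novo enzyme, gave mean levels of 9.42, 9.40, 9.19 and 9.71 in WT and 9.53, 9.71, 9.49 and 9.49 in Lck-/-, within the WT range. Its interval (-0.18 to 0.42 on the log2 scale, around 0.12) overlaps that of Dnmt3b, and a difference between the 2 genes was not tested. Among the erasers, Tet2 (chr3:133126751-133126810, minus strand) gave 10.30, 10.16, 9.52 and 9.93 in WT and 9.65, 9.89, 9.96 and 10.03 in Lck-/-, with WT replicate 3 the lowest of all (difference -0.09, SE 0.17). Its dimmer probe A_55_P2051405 gave -0.25 (SE 0.16, limma adjusted p = 0.306 over all probes). Tet3 (chr6:83319720-83319779, minus strand) cleared the background in both of its channels on 1 of 8 arrays in each genotype, so its levels of 7.14 to 7.41 in WT and 7.28 to 7.42 in Lck-/- are near the floor of the array and were not tested. A dimmer probe, A_51_P199339, cleared the background in the polysomal channel on 6 of 8 WT arrays and gave a polysomal difference of 0.08 (SE 0.16, adjusted p = 0.777 over all probes).

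The 3 core genes of PRC2 were each within 0.25 of WT. Ezh2 (chr6:47480307-47480366, minus strand) gave 13.05, 13.00, 12.83 and 12.71 in WT and 13.05, 13.28, 13.04 and 12.97 in Lck-/- (difference 0.19, SE 0.13, limma adjusted p = 0.312). Suz12 (chr11:79847251-79847310, plus strand) gave 11.42, 11.19, 11.09 and 11.44 in WT and 11.29, 11.73, 11.46 and 11.64 in Lck-/- (difference 0.25, SE 0.14, adjusted p = 0.228). In both genes all 4 Lck-/- extracts lay above the middle of the WT range, and the groups overlapped. Eed (chr7:97103264-97103323, minus strand) gave 13.46, 13.45, 13.22 and 13.57 in WT and 13.36, 13.76, 13.41 and 13.14 in Lck-/-, with a difference of -0.01 (95% interval -0.34 to 0.32). The intervals of these genes leave room for changes of up to 0.56, or for Eed 0.34 either way.

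As a description, the levels were set against each other over 16 values, 8 extracts in 2 pools, with each pool's mean taken out. These values share arrays and extracts and still hold each gene's difference between genotypes, which enters every r, so no p is given. Suz12 ran with Dnmt3a and Hells (Pearson r = 0.73 for each) and with Dnmt3b (0.72), and Dnmt1 ran against Dnmt3b (-0.45). Among 8630 other genes, those most like Dnmt1 were Wdyhv1 (r = 0.86), Hes6 (0.85), Cdc6, which loads the replicative helicase (0.84), Fam111a (0.83) and Slbp, the histone mRNA binding protein (0.82). Most like Ezh2 were Ptprc, the phosphatase CD45 (0.90), Oxsr1 (0.89), Hnrnpu (0.89), the integrin subunit Itgb1 (0.87) and the splicing factor Sf3b2 (0.87).

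The partners of these genes were described by counts in the same fit, beside a median difference over all genes of 0.04. Among 20 measured DNA methylation partners 2 rose and none fell in the mean of both fractions (median 0.09), a count near the gene-wide 10.2% for a rise. Those that rose were Usp7, which removes ubiquitin from Uhrf1 and Dnmt1 (0.61, SE 0.13, limma adjusted p = 0.0105), and the methyl-DNA reader Mbd2 (0.44, SE 0.13, adjusted p = 0.0371). The Mbd2 call was lost without any extract but WT replicate 1 or Lck-/- replicate 4 (adjusted p up to 0.0866), and that of Usp7 held in all 8 cases. The glycosylase Tdg, which excises oxidised methylcytosine, gave 0.64 with a wider spread (SE 0.22, adjusted p = 0.0583). In the ratio none of 17 was called; Mat2a, which makes the methyl donor, gave 0.60 and Idh2 -0.37 (adjusted p = 0.0631 and 0.0916).

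Among 8 measured PRC2 partners 2 rose and none fell (median -0.03), where 10.2% of all genes rose and 11.2% fell. Ezh1, the other methyltransferase of PRC2, went from 10.71 ± 0.13 to 11.29 ± 0.26 (SD, n = 4; limma adjusted p = 0.0204), and the accessory subunit Aebp2 from 10.48 ± 0.36 to 11.32 ± 0.34 (adjusted p = 0.0188). Both calls were lost without WT replicate 3 or Lck-/- replicate 3 or 4 (adjusted p up to 0.0610 for Ezh1 and 0.0566 for Aebp2). The histone-binding subunit Rbbp7 gave a difference of -0.39 (adjusted p = 0.138). None of the 8 was called in the ratio, as 3.86% of all genes were, and there Rbbp7 gave -0.34 and Phf19 -0.33.

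Among 14 measured PRC1 genes 2 rose and none fell (median 0.03), against the gene-wide 10.2% for a rise. They were Phc2, a polymerising subunit, from 12.97 ± 0.19 to 13.74 ± 0.12 (SD, n = 4; limma adjusted p = 0.00422), and Kdm2b, which brings PRC1 to CpG islands, from 12.38 ± 0.06 to 12.88 ± 0.14 (adjusted p = 0.0145). Both calls held with each extract left out, though Kdm2b was lost without WT replicates 1 and 2 together (adjusted p = 0.0665), as were Mbd2 (0.0905) and Ezh1 (0.0668). Rybp gave 0.35 (adjusted p = 0.0793). None of 13 was called in the ratio, where Phc3 gave 0.39 and Rybp -0.33.

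Among 6 erasers of Polycomb marks 1 rose and none fell (median 0.36), where 10.2% of all genes rose. That gene was Kdm6b, the demethylase of the PRC2 mark, with a difference of 0.47 (SE 0.13, limma adjusted p = 0.0257), while Asxl2 (0.32) and Bap1 (0.39) did not pass (adjusted p = 0.0775 and 0.0781). The Kdm6b call was lost without WT replicate 2 or 3 or Lck-/- replicate 4 (adjusted p up to 0.0668), and without WT replicates 1 and 2 together (0.0858). Kdm6b was also the 1 gene of these 6 to rise in the ratio, from 0.04 ± 0.11 to 0.69 ± 0.19 (SD, n = 4; difference 0.65, SE 0.13, adjusted p = 0.0213), where 2.81% of all genes rose. Bap1 gave -0.23 in the ratio. The Kdm6b ratio call was lost without any 1 of WT replicates 1, 2 and 3 or Lck-/- replicates 3 and 4 (adjusted p of 0.0165 to 0.0786 over the 8 extracts left out in turn), and with the swaps of WT replicates 1 and 2 exchanged (0.547). Its direction also rests on the scaling: the difference was -0.13 without normalization and -0.49 in the authors' deposited table, where most genes were lower.

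DNA replication and S-phase genes form a program that Dnmt1, Uhrf1 and Hells are known to accompany. Of 45 measured, 14 fell, 1 rose (Ung, 0.90, named after its value was seen) and 30 were not called (median -0.21), where 11.2% of all genes fell and 10.2% rose. Pole2 and Pole, subunits of DNA polymerase epsilon, fell by 1.05 and 0.77 on the log2 scale (limma adjusted p = 0.00205 and 0.00468), and thymidine kinase Tk1 fell by 0.86 (adjusted p = 0.00453). Pole did not pass with the mean over all its probes (-0.30, adjusted p = 0.126). Without WT replicate 3, 9 genes of the list fell, and without WT replicates 1 and 2 also 9 (median -0.09). None of the 9 regulators fell with them, and Dnmt1, Uhrf1 and Hells gave -0.24, 0.08 and 0.27; whether they differ from that list was not tested. In the ratio 1 of 44 fell, where 1.05% of all genes did: the ribonucleotide reductase subunit Rrm1 (0.77 ± 0.10 to 0.13 ± 0.15, adjusted p = 0.0180), and Chaf1b gave -0.69 (adjusted p = 0.0512). The Rrm1 call was lost without any 1 of WT replicates 1, 2 and 3 or Lck-/- replicates 3 and 4, and with the swaps exchanged (adjusted p = 0.532).

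**Figure D4:**
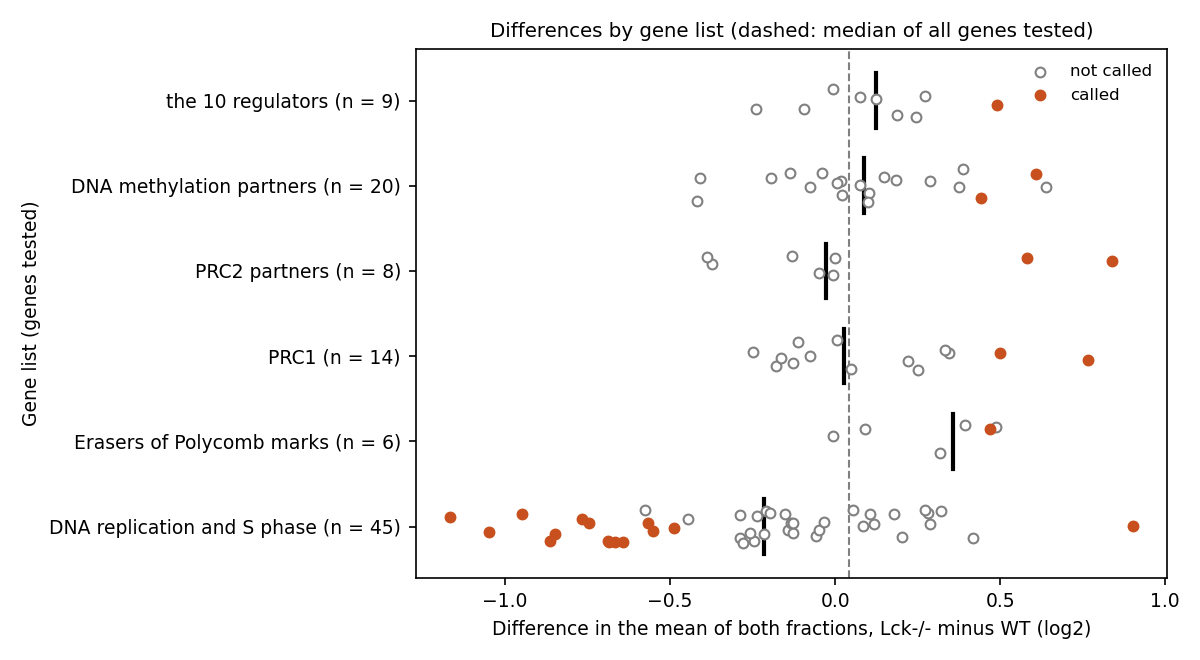
Difference in the mean of both fractions between Lck-/- and WT (x axis, log2) for each gene tested, by list, with called genes filled, a bar at the list median and a dashed line at the median of all genes (0.04). Among 9 regulators 1 gene is called, above 0. Among 45 replication genes 14 are called below 0 and 1 above, where 11.2% of all genes fell and 10.2% rose.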

How the data were processed

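Polysomal and sub-polysomal RNA of 8 extracts was measured on 16 arrays. Per the file headers, the deposited spot values are intensity from Agilent Feature Extraction 10.7.3.1, on build mm9, and the deposited flags, of unit other, mark spots above background. The authors' table holds log2 ratios; limma is named, per the submitters' processing notes, without its normalization. Directions follow the dyes in the labels.

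Here (limma 3.58.1, R 4.3.3), intensity was corrected with normexp (offset 50), ratios with loess, and levels between arrays with Aquantile. Dye swaps were averaged per extract. A ratio was tested where at least 6 of the 8 arrays in each genotype had the probe well above background in both channels. The mean of both fractions was tested where at least 1 genotype met this. The level of a pool was tested where at least 1 genotype met it in the channel of that pool alone. limma's moderated test gave p-values, adjusted by Benjamini-Hochberg over all genes (threshold 0.05), and was tested on simulated data. The number of arrays limits precision.

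The genes and lists were chosen with earlier results of these data known. Named were all 10 regulators, from each list the 3 smallest p in the mean and 2 in the ratio, and 5 genes most like Dnmt1 and Ezh2. Replicate numbers were not used to pair samples in the main fit. Other settings changed background, normalization, filter, probe, dye, slide, variance, extracts and source of ratios. One marker gene is not reported here.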

Additional observations from a re-analysis of the deposited data

Results flagged for a closer look

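Of 72 groups of 4 extracts examined for the 9 measured genes, 2 held an extract far from the other 3, and chance flags about 1 group in 20. Hells in the sub-polysomal level had 9.46 in Lck-/- replicate 3, below the other Lck-/- extracts at 9.59 to 9.62. Tet2 in the sub-polysomal level had 9.62 in Lck-/- replicate 2, below the others at 9.87 to 9.90. Neither gene was called in that level.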

How the results depend on the processing

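None of the 9 genes was called in the ratio in any setting, except that 8 fell with median centring, 9 without normalization within arrays and 9 with the authors' ratios. Of all genes tested, 4654 of 8263, 5940 of 8263 and 7426 of 8252 fell there. These settings keep the overall shift, and they turned Suz12 to -0.86, -0.87 and -1.19, Mat2a to -0.91, -0.73 and -0.86 and Kdm6b to -0.12, -0.13 and -0.49. The single call in the mean of both fractions ranged from 0 to 1 when each extract was left out in turn, as did that in the sub-polysomal level and, from none, the polysomal level. Without WT replicates 1 and 2, with the replicate block, with either dye orientation alone, on slide 2 alone, with the mean over all probes or without scaling between arrays, 0 genes were called in the mean and 0 in the sub-polysomal level. Sub-polysomal calls were also 0 with crossed dye swaps and with slide and dye terms, but 5 with median centring and 6 without normalization, both added after the data were seen. Over the settings up to 3646 of all genes rose in that level. Polysomal calls were 1 on slide 2 alone, and 1 (median centring) and 2 (no normalization) in the lower direction, where over the settings up to 2836 of all genes fell. Calls against 0 in WT, 7 at first, were 4 with Cy5 alone, 4 with Cy3 alone and 3 on slide 2. In Lck-/-, also 7, they were 4 with crossed dye swaps, 2 with Cy5 alone, 4 with Cy3 alone and 4 on slide 1. The cause of these changes was not tested, and the shares of all genes called against 0 at these settings are not given here. For Dnmt3b the mean differed by 0.21 to 0.57 over the 26 settings and the sub-polysomal level by 0.33 to 1.03, always higher in Lck-/-. Its polysomal difference ran from -0.05 to 0.67, and lay below 0 with median centring (-0.04) and without normalization within arrays (-0.05). With the replicate block, Dnmt3b had adjusted p of 0.0588 in the mean and 0.0597 in the sub-polysomal level. Same-numbered extracts of the 2 genotypes correlated at -0.24 to 0.26 in the ratio and -0.20 to 0.43 in the mean, not all above 0.1. The main fit therefore used no pairing, though so few correlations cannot exclude one. All genes called in the ratio ranged from 30 to 7451 (319 in the main setting), in the mean from 826 to 2353 (1943), in the polysomal level from 140 to 2920 (1566) and in the sub-polysomal level from 276 to 3986 (1965).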
